A study of Mus musculus with 27 samples.

Results

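Epiblast-like cells of 2 wild-type mouse lines were compared after 1 day of conversion (D1) by the CpG methylation of 422141 autosomal windows. These are the windows on the 19 autosomes with a value in all 27 libraries, out of 428481 autosomal windows (98.5%) and 453245 windows in the whole table. Both lines started as embryonic stem cells held naive in 2i and LIF (D0) and were driven towards epiblast-like cells, and whole-genome bisulfite libraries were made on D0, D1 and D2. TET_WT is the unedited parent of a line lacking Tet1, Tet2 and Tet3, and DNMT_WT is the unedited parent of a separate line lacking Dnmt1, Dnmt3a and Dnmt3b. Neither group compared here carries a deletion, and both were sampled on D1 with 3 libraries each. The labels do not say whether the 3 libraries of a group came from separate cultures, so the p-values speak only for the scatter among these libraries, which may be technical. Each group is 1 line, so a difference between the groups cannot be told apart from a difference between these 2 lines' histories or backgrounds. No expression was measured in these libraries, so the cell type label was not checked against expressed markers.

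Methylation of CpGs is copied at replication by Dnmt1 with Uhrf1, is laid down anew by Dnmt3a and Dnmt3b, and is oxidised by the Tet enzymes. Naive cells in 2i are known for low genome-wide methylation, which is regained as cells leave the naive state. CpG-rich promoters are known to stay unmethylated through this transition, while imprinted control regions keep methylation on one parental copy.

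On D1 the autosomal genome of DNMT_WT was far less methylated than that of TET_WT. The mean over windows was 34.2%, 31.3% and 34.2% in TET_WT replicates 1, 2 and 3, and 13.5%, 13.7% and 14.02% in those of DNMT_WT. The groups did not overlap, and TET_WT replicate 2 was the lowest of its group. The group means were 33.2% ± 1.70 (SD, n = 3) and 13.7% ± 0.271 (SD, n = 3), a difference of -19.5 points with a standard error of 0.992. The two-sided exact permutation test gave p = 0.1, the smallest p that 3 libraries against 3 allow. The median over windows differed by -20.9 points and the length-weighted mean by -20.8 points. The deposited values are percentages and come with no read numbers, so depth is unknown and intervals for counting error are left out.

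The shares of windows at low and at high levels differed as well. Both shares move with the centre, so they do not show by themselves a difference in the shape of the distribution. Windows under 5% methylation made up 20.3% ± 0.565 (SD, n = 3) of the windows in DNMT_WT and 5.65% ± 0.187 (SD, n = 3) in TET_WT. Windows at 50% or more made up 0.0392% ± 0.00417 (SD, n = 3) in DNMT_WT and 11.3% ± 2.91 (SD, n = 3) in TET_WT. For both shares the libraries of the groups did not overlap, and the exact permutation p was 0.1.

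**Figure D1:**
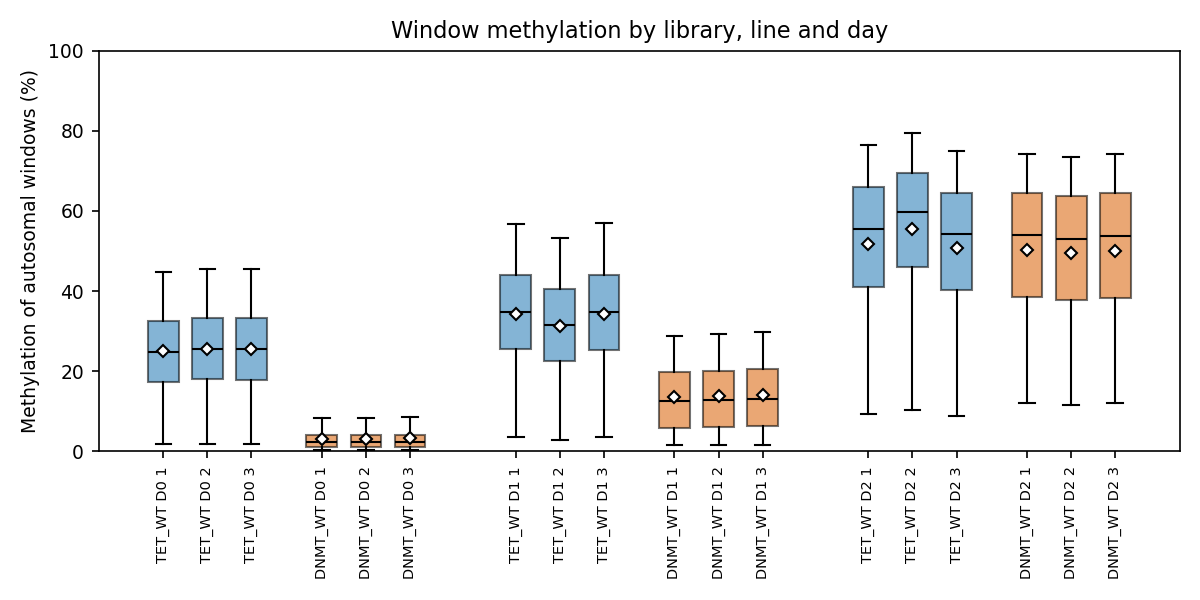
Methylation (%) of 422141 autosomal windows in each TET_WT (blue) and DNMT_WT (orange) library on D0, D1 and D2; boxes span the 25th to 75th percentiles, whiskers the 5th to 95th, the line is the median and the diamond the mean. The D1 means are 31.3% to 34.2% in TET_WT and 13.5% to 14.02% in DNMT_WT, and the 2 lines are closer on D2 than on D0 or D1.

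The D1 difference lay between a larger one before it and a smaller one after it. On D0 the lines averaged 25.4% ± 0.386 (SD, n = 3) in TET_WT and 3.17% ± 0.0654 (SD, n = 3) in DNMT_WT, a difference of -22.2 points. On D2 they averaged 52.7% ± 2.58 (SD, n = 3) and 49.9% ± 0.427 (SD, n = 3), a difference of -2.80 points with a standard error of 1.51. DNMT_WT on D1 was still below TET_WT on D0, with a difference of -11.6 points and a standard error of 0.272. In 9.48% of windows the D1 mean of DNMT_WT was above the D0 mean of TET_WT.

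Window by window, nearly all differences on D1 ran the same way. A window was called when the moderated test of limma, fitted over all 27 libraries, gave a Benjamini-Hochberg adjusted p under 0.05 and the group means differed by at least 10 percentage points. DNMT_WT was lower in 359513 windows (85.2%) and higher in 54 (0.0128%), and 62574 windows were not called. In 92.0% of windows all 3 DNMT_WT libraries lay below all 3 TET_WT libraries, and in 0.496% all 3 lay above. The 25th percentile of the window differences was at -25.4 points and the 75th percentile at -14.7 points. These calls are of absolute levels. When library medians were subtracted, a shift of -20.9 points between the lines was taken out. Then 68452 windows were higher in DNMT_WT and 33140 lower, so that 67.4% of the calls were higher, against 0.0150% without centring. A window low in both lines turns higher in this way by arithmetic alone.

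**Figure D2:**
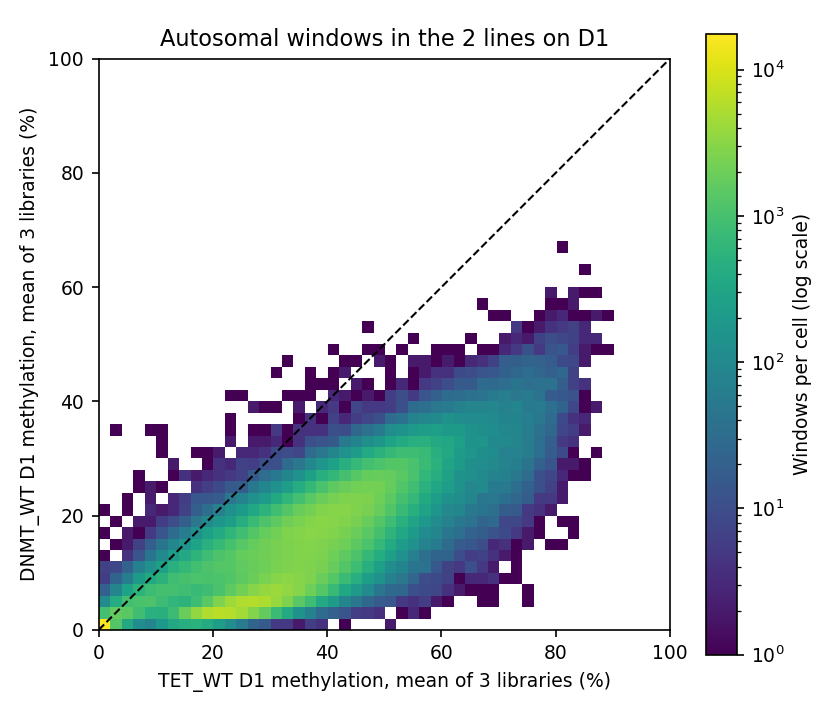
Mean D1 methylation (%) of each autosomal window in TET_WT (x axis) and DNMT_WT (y axis), 3 libraries each, counted in cells of 2 by 2 points and coloured by the number of windows on a log scale; the dashed line marks equal levels. Nearly all windows lie below the line, and 54 windows were called higher in DNMT_WT.

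The windows called lower on D1 had mostly been lower already. Of them, 99.3% were also lower in DNMT_WT on D0, against 88.6% of all windows. On D2, 11.5% of them were called lower, against 9.87% of all windows. The size of the D1 difference followed the D0 level in TET_WT. Windows at 2% or less in TET_WT on D0 differed by 0.0983 points on D1, those at 2 to 5% by -1.35 points, those at 5 to 10% by -4.91 points, those at 20 to 30% by -20.6 points and those above 60% by -37.9 points. These classes use TET_WT libraries of D0, not those compared. A level cannot be negative, so a window low in TET_WT could not lie far lower in DNMT_WT. The gradient in points follows in part from this limit.

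The promoters of 6 genes show the range of CpG content behind the results at gene starts. They are taken from RefSeq on GRCm38.p6, run from 250 bases before to 50 bases after the transcription start, and are written 5′ to 3′ on the strand of the gene with every CpG in capitals. Fv1 and Atxn1l lie at starts that were higher in DNMT_WT, Nap1l5, Mov10l1 and Afp at starts that were lower, and Klf2 at a start near 0 in both lines; they were chosen after the values were seen.
Fv1, chr4:147868729-147869028, plus strand: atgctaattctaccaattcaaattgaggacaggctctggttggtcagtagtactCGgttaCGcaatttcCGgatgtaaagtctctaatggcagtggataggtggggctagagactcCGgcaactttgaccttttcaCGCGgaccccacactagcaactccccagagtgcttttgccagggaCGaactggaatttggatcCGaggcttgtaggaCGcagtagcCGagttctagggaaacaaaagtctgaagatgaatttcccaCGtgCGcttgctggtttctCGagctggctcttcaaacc
Atxn1l, chr8:109737731-109738030, minus strand: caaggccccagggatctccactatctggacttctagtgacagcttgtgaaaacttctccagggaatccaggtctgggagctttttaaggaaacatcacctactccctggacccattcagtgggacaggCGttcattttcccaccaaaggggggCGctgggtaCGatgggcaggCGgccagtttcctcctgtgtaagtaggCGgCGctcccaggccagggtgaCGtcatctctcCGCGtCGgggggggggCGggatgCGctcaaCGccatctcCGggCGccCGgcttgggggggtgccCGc
Nap1l5, chr6:58907077-58907376, minus strand: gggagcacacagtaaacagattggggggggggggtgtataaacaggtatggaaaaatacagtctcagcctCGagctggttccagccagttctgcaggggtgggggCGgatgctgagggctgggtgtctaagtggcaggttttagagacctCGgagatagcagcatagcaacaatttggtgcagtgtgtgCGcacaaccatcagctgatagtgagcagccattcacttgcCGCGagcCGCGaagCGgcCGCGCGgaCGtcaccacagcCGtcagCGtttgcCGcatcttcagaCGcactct
Mov10l1, chr15:88982744-88983043, plus strand: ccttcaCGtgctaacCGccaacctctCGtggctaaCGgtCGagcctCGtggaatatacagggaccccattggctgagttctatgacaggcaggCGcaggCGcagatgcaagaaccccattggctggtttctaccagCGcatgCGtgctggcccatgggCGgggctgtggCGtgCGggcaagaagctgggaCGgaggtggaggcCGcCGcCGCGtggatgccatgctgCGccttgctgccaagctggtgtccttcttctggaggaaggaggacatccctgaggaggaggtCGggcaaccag
Afp, chr5:90490464-90490763, plus strand: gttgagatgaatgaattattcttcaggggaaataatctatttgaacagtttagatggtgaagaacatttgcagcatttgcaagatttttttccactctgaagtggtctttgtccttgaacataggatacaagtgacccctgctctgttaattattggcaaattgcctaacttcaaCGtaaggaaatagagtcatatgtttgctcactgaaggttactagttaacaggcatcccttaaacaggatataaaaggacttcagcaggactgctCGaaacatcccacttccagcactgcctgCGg
Klf2, chr8:72318812-72319111, plus strand: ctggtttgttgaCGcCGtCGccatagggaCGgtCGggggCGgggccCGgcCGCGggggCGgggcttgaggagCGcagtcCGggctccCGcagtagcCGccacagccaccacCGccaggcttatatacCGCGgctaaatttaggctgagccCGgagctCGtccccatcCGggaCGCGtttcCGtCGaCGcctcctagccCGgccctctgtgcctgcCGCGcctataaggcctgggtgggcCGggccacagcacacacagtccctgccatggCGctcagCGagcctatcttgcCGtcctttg
The promoter of Afp holds 3 CpGs, that of Fv1 13, those of Atxn1l and Nap1l5 17 each, that of Mov10l1 20 and that of Klf2 32, against a median of 7 over 32851 promoters.

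The difference at gene starts, in points, shrank as promoter CpG content rose. For each of 15960 autosomal genes the window holding its start was taken, and genes were grouped by the CpGs in the 300 promoter bases, a grouping added after the data were seen. Genes with 0 to 4 CpGs averaged 29.0% ± 1.65 (SD, n = 3) in TET_WT and 10.3% ± 0.203 (SD, n = 3) in DNMT_WT, a difference of -18.8 points. With 5 to 9 CpGs the difference was -13.4 points, with 10 to 19 it was -4.72 points, and with 20 or more it was -1.62 points, from 3.89% ± 0.243 to 2.27% ± 0.0516 (SD, n = 3). TET_WT levels fell with CpG content, which bounds the difference in points. The DNMT_WT level was 35.4%, 46.2%, 52.7% and 58.3% of the TET_WT level, from the fewest CpGs to the most. The libraries of the lines did not overlap in any of these 4 classes, and each exact permutation p was 0.1. Over all start windows, 5971 genes were lower in DNMT_WT (37.4%) and 5 were higher (0.0313%). A start window under 10% in TET_WT could not be called lower, and the median in TET_WT was 10.6%.

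The starts printed above spanned this range. Each value is of the window holding the start, not of the 300 printed bases alone. Some windows, such as that of Klf2, leave part of those bases out. At Afp, the fetal serum protein of yolk sac and liver, the start window (chr5:90486763-90491052) held 45.2%, 40.4% and 45.6% in TET_WT and 5.58%, 7.15% and 9.05% in DNMT_WT. At Mov10l1, a helicase of the germline piRNA pathway, the start window (chr15:88980896-88983118) held 38.9%, 31.2% and 34.8% in TET_WT and 17.1%, 18.1% and 14.5% in DNMT_WT. At Nap1l5, an imprinted gene, the start window (chr6:58906634-58907306) held 14.5%, 10.5% and 23.4% in TET_WT and 0%, 0.255% and 1.28% in DNMT_WT, where 0 is as listed. The groups did not overlap at these 3 starts. At Klf2, a naive transcription factor, the start window (chr8:72318884-72319513) was at or below 0.379% in all 6 libraries.

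CpG density over the rest of the genome was read from window length, since each window is named as holding 100 CpGs and a longer window is therefore CpG-poorer. The densest windows, up to 1 kb, averaged 1.67% ± 0.0511 (SD, n = 3) in TET_WT and 1.06% ± 0.0149 (SD, n = 3) in DNMT_WT. Windows of 3 to 6 kb averaged 37.9% ± 1.91 and 17.2% ± 0.337 (SD, n = 3), and windows over 16 kb 23.5% ± 1.30 and 6.002% ± 0.172 (SD, n = 3). The DNMT_WT level was 63.6% of the TET_WT level up to 1 kb, 51.9% at 1 to 3 kb, 45.3% at 3 to 6 kb, 34.2% at 6 to 9 kb, 25.6% at 9 to 16 kb and 25.5% above 16 kb. CpG-poor windows therefore lay further down in DNMT_WT even relative to its own other windows. Windows over 16 kb held 62.7%, 61.8% and 61.9% of the level of 3 to 6 kb windows in the TET_WT libraries, and 34.6%, 34.96% and 35.3% in the DNMT_WT libraries. The groups did not overlap (exact permutation p = 0.1).

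**Figure D3:**
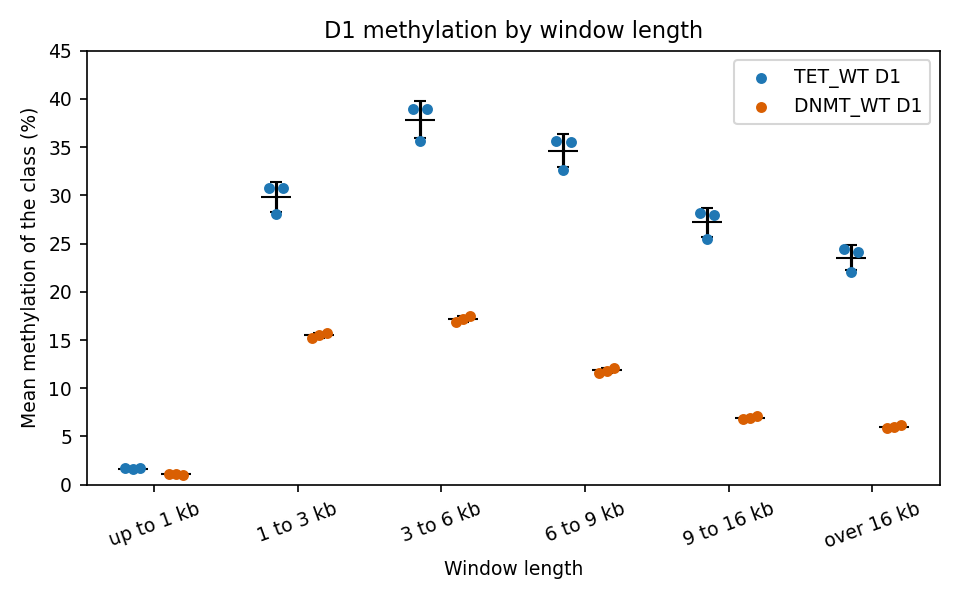
Mean D1 methylation (%) of autosomal windows by length class in each TET_WT (blue) and DNMT_WT (orange) library; bars give the mean and SD of 3 libraries. In both lines the level is highest at 3 to 6 kb, and from there to windows over 16 kb it goes from 37.9% to 23.5% in TET_WT and from 17.2% to 6.002% in DNMT_WT.

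Position relative to genes also separated the lines. Windows in protein-coding genes, without a start, were -0.102, -0.334 and -0.0865 points from windows outside genes in the TET_WT libraries, and 3.07, 3.14 and 3.19 points above them in the DNMT_WT libraries. Among windows of 3 to 6 kb alone, the gene windows were 0.514 points ± 0.209 (SD, n = 3) above the others in TET_WT and 2.53 points ± 0.0467 (SD, n = 3) above them in DNMT_WT. In both comparisons the groups did not overlap (exact permutation p = 0.1). Windows holding a start averaged 14.8% ± 0.857 in TET_WT and 6.45% ± 0.131 in DNMT_WT (SD, n = 3). By chromosome, the D1 difference ran from -16.9 points on chromosome 11 to -21.2 points on chromosome 6.

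Of the 54 windows higher in DNMT_WT on D1, 50 were also higher in DNMT_WT on D2, against 1.82% of all windows, while on D0 only 1 was called higher and 2 were called lower. Their median levels in DNMT_WT were 4.55% on D0, 25.9% on D1 and 69.2% on D2, and in TET_WT 4.93%, 9.38% and 34.2%. In the Tet triple knockout derived from TET_WT, their median D1 level was 55.6%, against 64.3% over all autosomal windows. In TET_WT itself the D1 medians were 9.38% and 33.8%. The 54 were called with these TET_WT libraries, and a part for Tet was not tested. They were spread over 18 chromosomes with at most 5 on any. Of the 54, 27 lay in protein-coding genes, a share near the 52.3% of all autosomal windows. A transcription start was held by 5 of the 54 (9.26%), against 4.13% of all autosomal windows. In 51 of the 54 windows the D1 libraries of the lines did not overlap. The 54 were called higher on these same libraries, so this lack of overlap adds no support to the calls. In every fit that left out 1 of the 6 libraries, 32 of the 54 were called higher.

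The largest excess lay over Fv1, a retrovirus restriction gene. The window chr4:147869064-147872701 held 3.05%, 1.57% and 1.41% in TET_WT and 40.6%, 30.3% and 35.5% in DNMT_WT. All DNMT_WT libraries were far above all TET_WT libraries, with a difference of 33.4 points, a standard error of 2.22 and an adjusted p of 1.50e-13 in limma. The neighbouring window that holds the Fv1 and Miip starts, chr4:147867836-147869050, held at most 0.179% in TET_WT and 9.80%, 13.2% and 9.77% in DNMT_WT. Fv1 was the 1 gene of 20356 whose body was called higher in DNMT_WT (0.00491%).

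Further windows lay inside genes of varied roles. In Rapgef3, a cAMP-activated exchange factor, the window chr15:97761056-97763057 held 10.7%, 13.03% and 7.53% in TET_WT and 28.9%, 34.8% and 31.03% in DNMT_WT. In Efl1, a ribosome maturation GTPase, the window chr7:82741820-82744737 held 5.35%, 4.91% and 8.95% in TET_WT and 24.4%, 31.2% and 26.8% in DNMT_WT. In Msi2, an RNA-binding protein of stem cells, the window chr11:88687479-88689993 held 4.95%, 0.288% and 0.552% in TET_WT and 21.6%, 21.7% and 22.1% in DNMT_WT. Windows were named for a D1 excess only if their libraries did not overlap between lines, so that lack of overlap adds no support. In Togaram1, a ciliary microtubule protein, the window chr12:64966793-64971981 held 5.79%, 3.59% and 4.08% in TET_WT and 25.7%, 24.4% and 20.8% in DNMT_WT. With windows within 100 kb of a larger one left out, the other 5 of the 10 largest lay nearest Gm52030, Tmsb10, F3, Asap2 and Phlda1, at differences of 26.6, 22.8, 21.9, 16.9 and 16.8 points. A second window in Efl1, chr7:82734512-82740118, was left out in this way at a difference of 18.1 points.

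**Figure D4:**
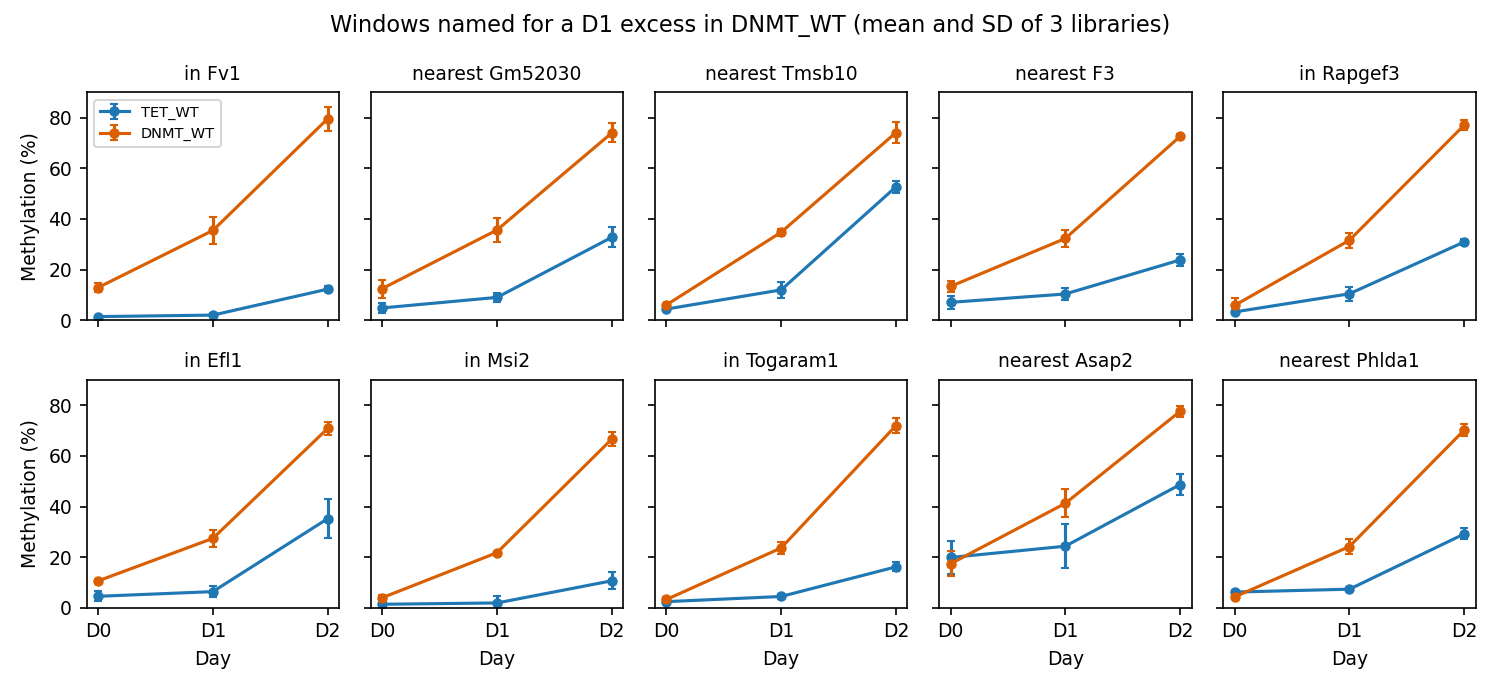
Methylation (%) on D0, D1 and D2 of the 10 windows with the largest D1 excess in DNMT_WT (orange) over TET_WT (blue), leaving out any within 100 kb of a larger one, as mean and SD of 3 libraries, each titled by the gene it lies in or nearest. Only called windows whose D1 libraries did not overlap between lines could be taken. In the Fv1 window DNMT_WT is at 12.9%, 35.5% and 79.6% and TET_WT at 1.42%, 2.01% and 12.3%.

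The calls at starts differed in their support. At the Atxn1l start (chr8:109737180-109737791) DNMT_WT held 14.3%, 11.7% and 11.5% against 1.51%, 2.48% and 1.27% in TET_WT, without overlap. The window of 308 bp shared by the Fhl4 and Tmem263 starts was listed at 0 in 5 libraries and at 33.3% in DNMT_WT replicate 3, so its call came from 1 library. At the Lmbrd1 start the window chr1:24678238-24678896 held 0.538%, 1.79% and 32.7% in DNMT_WT, against a mean of 0.0501% in TET_WT. By start window only 5 genes were called higher, namely Fhl4, Tmem263, Miip, Fv1 and Atxn1l. Lmbrd1 was not among them: its window was called as 1 of the 54, and its excess came mainly from 1 library. These starts were named after their values were seen.

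The largest deficits were in windows that TET_WT kept methylated in the naive state. Nearest Oxsm, an enzyme of mitochondrial fatty acid synthesis 276016 bp away, the window chr14:15958157-15962636 held 74.7%, 74.5% and 75.03% in TET_WT and 9.70%, 6.22% and 7.03% in DNMT_WT, a difference of -67.1 points with a standard error of 1.97 and an adjusted p of 2.98e-18 in limma. Nearest Colec12, a scavenger receptor, the window chr18:9908684-9911854 averaged 74.2% in TET_WT and 5.80% in DNMT_WT. Nearest Mettl25, Rhobtb3 and Cetn1 the differences were -65.1, -64.9 and -64.7 points. All 5 had been between 64.5% and 75.6% in TET_WT on D0, and all 5 were still called lower in DNMT_WT on D2. In all, 4085 windows were at least 40 points lower, 23.2% of them in protein-coding genes against 52.3% of all windows. On D2, 80.7% of these 4085 were still called lower, against 9.87% of all windows.

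Across gene bodies, measured as the mean of the windows overlapping each gene, DNMT_WT was lower in 14959 of 20356 autosomal genes (73.5%), with a median difference of -15.1 points. No member of any of the 13 gene lists was called higher. Centring on library medians turned the gene calls to 6132 higher and 160 lower, 97.5% higher against 0.00668% without centring. It moved the median over genes to 5.80 points, and the count of each list under centring stands beside its own. Centring takes out a shift of -20.9 points between the lines, so a gene low in both lines turns higher by arithmetic alone.

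Of the naive pluripotency genes, 6 of 29 were lower, with a median difference of -3.49 points, against 73.5% and -15.1 points over all genes (centred: 24 higher, 0 lower). Lifr, a subunit of the LIF receptor, held 37.8%, 33.9% and 37.9% in TET_WT and 19.99%, 21.04% and 21.2% in DNMT_WT. Stat3, the factor that LIF activates, differed by -15.1 points with a standard error of 1.13. Both were without overlap, and both turned positive under centring. Klf2 and Gbx2, naive transcription factors, were below 1% on average in both lines, with differences of 0.152 and 0.0905 points that did not pass.

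Among formative and primed epiblast genes 10 of 28 were lower (35.7%, against 73.5% over all genes). Their median was -6.43 points (centred: 18 higher, 0 lower). Cer1, a secreted Nodal antagonist, held 39.6%, 37.7% and 39.4% in TET_WT and 13.03%, 11.5% and 14.3% in DNMT_WT. Ednrb, an endothelin receptor, differed by -26.2 points and Cdh2, N-cadherin, by -26.7 points. Utf1, a chromatin factor of pluripotent cells, was at 0.355% and 0.306% and did not pass.

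Of the germline genes, 46 of 50 were lower (92.0%, against 73.5% over all genes). Their median was -17.0 points, against -15.1 points over all genes (centred: 4 higher, 1 lower). Tuba3b, a testis tubulin with close paralogs, so that its reads may be shared, held 48.8%, 44.7% and 51.0% in TET_WT and 13.2%, 13.7% and 14.6% in DNMT_WT. Mov10l1 and Sohlh2, a germ cell transcription factor, differed by -25.6 and -24.7 points. Meioc, a meiosis regulator, differed by -7.07 points, under the 10 points required. All 27 genes of the 2-cell-like list were lower, with a median of -22.0 points (centred: 0 higher, 0 lower); many of these genes, such as the Zscan4 members, belong to multi-copy families, so their mapping is uncertain.

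Of the imprinted loci, 34 of 46 were lower (73.9%), near the 73.5% over all genes. Their median was -15.3 points, against -15.1 points over all genes (centred: 17 higher, 1 lower). Peg13, a noncoding RNA expressed from the paternal copy inside Trappc9, held 54.7%, 50.3% and 54.3% in TET_WT and 11.3%, 11.04% and 11.5% in DNMT_WT, a difference of -41.8 points with a standard error of 1.68. It was the lowest listed gene and was without overlap. Trappc9, its host, differed by -24.7 points and Mest, a maternally methylated gene, by -24.8 points. At the starts, Mest held 30.1%, 33.6% and 30.9% in TET_WT and 7.18%, 5.56% and 8.77% in DNMT_WT. The Peg3 start held 15.98%, 17.6% and 22.6% against 1.47%, 1.20% and 1.30%, and the Snrpn start 19.02%, 17.1% and 22.2% against 2.89%, 2.06% and 2.905%. None of these starts overlapped between lines. Zrsr1 and Cdkn1c had the smallest body differences, -1.58 and -1.61 points.

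Of the methylation machinery, 16 of 31 gene bodies were lower (51.6%, against 73.5% over all genes). Their median was -10.1 points (centred: 16 higher, 0 lower). Dnmt3a and Dnmt3b, the de novo enzymes, differed by -16.7 and -16.5 points, Dnmt3l, their cofactor, by -15.2 points, and Dnmt1 by -12.97 points. All 4 turned positive under centring. Tet3 differed by -16.9 points, while Tet1 and Tet2 differed by -5.08 and -4.79 points, under the 10 points required. Uhrf1, the Dnmt1 partner, held 16.4%, 12.6% and 14.5% in TET_WT and 12.98%, 13.6% and 12.2% in DNMT_WT, and its libraries overlapped. Zfp57 and Trim28, which protect imprints, differed by 1.91 and 0.191 points and did not pass.

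Haematopoietic and endothelial regulators were lower in 33 of 49 (67.3%), against 73.5% over all genes. Their median was -14.3 points, against -15.1 points over all genes (centred: 18 higher, 0 lower). Ikzf2, a lymphoid factor, held 33.2%, 30.9% and 33.1% in TET_WT and 5.97%, 5.80% and 6.403% in DNMT_WT. Mecom and Erg, factors of blood stem cells and endothelium, differed by -24.7 and -24.6 points. The globin list was lower in 6 of 9 (66.7%), with a median of -15.6 points (centred: 3 higher, 0 lower). Primitive endoderm and trophoblast genes were lower in 18 of 24 (median -17.4 points; centred: 7 higher, 0 lower), led by Afp at -27.1 points and Dab2, an endocytic adaptor, at -25.7 points.

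Mesoderm and endoderm genes were lower in 8 of 28 (28.6%, against 73.5% over all genes), among them Msgn1, a paraxial mesoderm factor, at -19.02 points. The list median was -4.22 points (centred: 21 higher, 0 lower). Neuroectoderm genes were lower in 2 of 27 (median -2.14 points; centred: 26 higher, 0 lower), Pax3 at -19.1 points and Pax2 at -10.3 points, and Pax2 lost its call without TET_WT replicate 1 or replicate 3, which left 1 gene called. Ubiquitously expressed genes were lower in 7 of 28 (median -4.93 points; centred: 23 higher, 0 lower), and in 11 without TET_WT replicate 2. No Hox gene of 39 was called in limma (median -1.35 points; 15 were lower and 1 higher at adjusted p alone; centred: 39 higher, 0 lower), and 1 was called lower without TET_WT replicate 2. Hoxd10 was at 5.48% in TET_WT and 5.53% in DNMT_WT. A gene body under 10% in TET_WT could not be called lower by 10 points. Under centring a gene body low in both lines turned higher by arithmetic, since a shift of -20.9 points was taken out. The centred counts of such lists therefore carry no result of their own. The median TET_WT gene body was at 5.65% for neuroectoderm and 6.23% for Hox, against 28.9% for all genes.

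**Figure D5:**
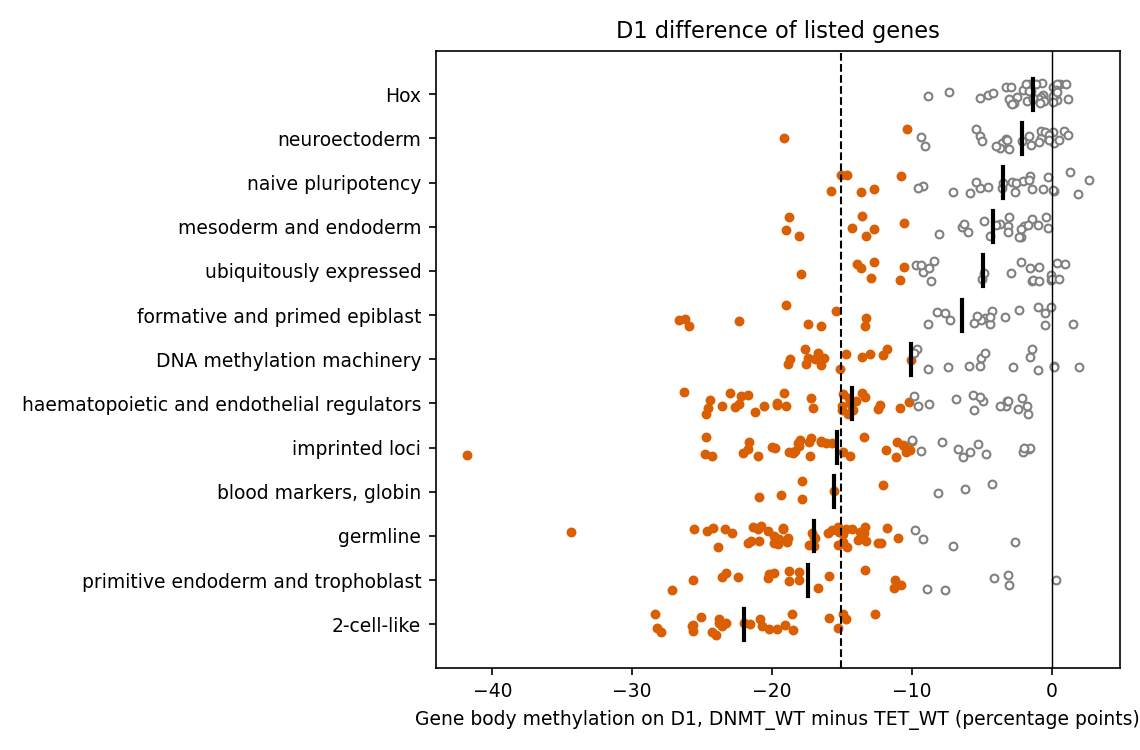
D1 difference in gene body methylation (DNMT_WT minus TET_WT, percentage points) of the listed genes; filled points were called lower, open points were not called, the short bars are list medians and the dashed line is the median of all genes, -15.1 points. List medians run from -22.0 points for 2-cell-like genes to -1.35 points for Hox genes; after centring on library medians only the 2-cell-like list keeps a negative median, at -1.11 points.

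The first day's step was also compared, as the difference of the D0 to D1 gains of the 2 lines. DNMT_WT gained 10.6 points with a standard error of 0.161 and TET_WT 7.84 points with a standard error of 1.00, a difference of 2.73 points with a standard error of 1.02, for which no permutation test was made. Without TET_WT replicate 2 on D1 the difference was 1.75 points, and without each of the other D1 libraries in turn it was 2.59 to 3.22 points; these values, and the values without a library by window class, are alternatives added after the data were seen. In limma, DNMT_WT gained more in 28772 windows (6.82%) and less in 87 (0.0206%), and among gene bodies it gained more in 137 (0.673%) and less in 2 (0.00983%). Without TET_WT replicate 2 on D1 the window counts were 14964 and 225, and 14588 of the larger gains were called both ways. The 87 smaller gains were 57, 54 and 39 without DNMT_WT replicate 1, 2 and 3. The 137 larger gains among gene bodies were 84 without TET_WT replicate 2, 258 without replicate 1 and 254 without replicate 3. The counts also depend on the scale: on a logit scale, called at adjusted p alone, 370686 windows gained more in DNMT_WT and 485 less, and with library medians subtracted 13789 and 671. A larger gain was called in 9.59% of windows in protein-coding genes and 4.46% of windows outside them, and without TET_WT replicate 2 in 4.81% and 2.51%. By length, the gain difference was 4.32 points at 3 to 6 kb with a standard error of 1.15, and 3.22 points without TET_WT replicate 2. At 6 to 9 kb it was 1.26 points with a standard error of 1.03, and 0.263 points without that library. At 9 to 16 kb it was -1.07 points with a standard error of 0.915, and without TET_WT replicates 1, 2 and 3 in turn it was -0.602, -1.95 and -0.658 points.

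Single windows showed how far the gains diverged. Nearest Eepd1, the window chr9:25860014-25861690 went from 17.0% to 52.1% in DNMT_WT and from 81.1% to 79.6% in TET_WT, a gain difference of 36.7 points with a standard error of 5.003 and an adjusted p of 0.000560 in limma. In Nmnat3, an enzyme of NAD synthesis, the window chr9:98342844-98344433 went from 8.17% to 28.0% in DNMT_WT and from 49.2% to 34.7% in TET_WT. In the other direction, nearest Scgb2b21, the window chr7:33511208-33515179 went from 32.5% to 26.7% in DNMT_WT and from 58.1% to 78.5% in TET_WT.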

How the data were processed

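Whole-genome bisulfite libraries of TET_WT and DNMT_WT on D1, 3 each, were compared, with the other 21 libraries in the same fit. Per the submitters' processing notes, Trim Galore 0.6.6, cutadapt 2.3, Bismark 0.23.0 and GRCm38 were used; their roles, the coverage filter and how windows were filled are not given in the sources used here. The authors deposited percent methylation for each library and window of 100 CpGs by name, without counts, so depth per library is unknown.

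Percentages were fitted as deposited with limma 3.58.1 (R 4.3.3; lmFit, eBayes with trend) with 9 group means, and Benjamini-Hochberg adjustment ran over 444250 nuclear windows (21436 genes, 16833 start windows); autosomal results are reported. Calls needed an adjusted p under 0.05 and at least 10 points. The fit was also run on simulated data with independent noise for each window and library. That run held no shift of a whole library, so it does not speak for such shifts. Library means were compared by exact permutation. Gene positions and promoters came from RefSeq (GRCm38.p6), and 426 of 443 listed names matched. Tables used Python 3.11.15, numpy 2.4.6 and pandas 2.3.3, figures matplotlib 3.10.9. For each list the text could name the 3 called genes with the largest and the 2 with the smallest difference, any imprinted or machinery gene, and, in each direction, 10 windows for the D1 difference and 5 for the gain, by size, leaving out any within 100 kb of a larger one; a selection of these is named. Windows for the D1 difference were taken only from called windows whose libraries did not overlap between lines. The members and lists were chosen with earlier results of these data known. Alternatives were centring, a logit scale, other minimum differences, no trend, the 6 libraries alone and other window sets. Further ones were the start window, a replicate block and leaving out each of the 6 D1 libraries in turn.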

Additional observations from a re-analysis of the deposited data

Results flagged for a closer look

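The gains of the 2 lines from D0 to D1 differed by a test of the difference itself, the interaction of line and day in limma. DNMT_WT gained more than TET_WT in 28772 windows and less in 87, and more in 137 gene bodies and less in 2. The 2 genes with the smaller gain were Vmn1r152, a vomeronasal receptor of a multi-copy family, and Gm9271, each measured by 1 window. They had gain differences of -11.5 and -14.1 points and were named after their values were seen. TET_WT replicate 2 on D1 was the lowest of its group, and its part in these counts is given by the values without it: 14964 windows with a larger and 225 with a smaller gain, and 84 and 6 genes. Without TET_WT replicate 1 or 3, respectively, 258 and 254 genes had a larger gain and 3 a smaller one, and without any 1 DNMT_WT library on D1 1 gene had a smaller gain.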

How the results depend on the processing

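The D1 difference of the autosomal mean ran from -20.5 to -19.0 points when 1 of the 6 D1 libraries was left out. The gain difference then ran from 1.75 to 3.22 points, and all window classes kept their sign. No D0 library was left out, so these ranges do not cover the D0 side of the gain. Leaving out 1 D1 library gave 355689 to 364368 lower and 52 to 62 higher windows, 14577 to 15604 lower genes and 1 higher gene. For the gain it gave 14964 to 35496 windows with a larger and 39 to 225 with a smaller gain, and 84 to 258 and 1 to 6 genes. With a minimum of 20 points, 221247 windows were lower and 6 higher on D1, 4932 genes were lower, 438 windows had a larger and 7 a smaller gain, and 0 genes had either. With no minimum, 817 windows and 24 genes were higher on D1, 223 windows had a smaller gain, and 9442 genes had a larger and 85 a smaller gain. On the logit scale, called at adjusted p alone, 2158 windows and 85 genes were higher on D1, 370686 windows and 19730 genes had a larger gain, and 485 and 6 a smaller one. Centring on library medians gave 68452 higher and 33140 lower windows, 6132 higher and 160 lower genes, 13789 larger and 671 smaller window gains, and 37 and 8 gene gains. Without the trend 1 gene had a smaller gain. By the start window 5 genes were higher and 5971 lower. Under centring the gene body difference turned positive for Lifr (5.11 points), Stat3 (5.82), Tcl1 (6.25), Dnmt1 (7.94), Dnmt3a (4.21), Dnmt3b (4.39), Dnmt3l (5.73), Tet3 (3.99), Ehmt1 (2.02), Hbb-bs (1.51), Pax3 (1.76), Pax2 (10.6), Msgn1 (1.89), Hnf4a (2.11), Zscan4d (8.24) and Sdha (2.96). The replicate block gave 359516 lower and 54 higher windows. Same-numbered libraries of the lines had correlations of -0.00761, 0.00310 and 0.0155. These values show no shared pattern by number, but whether same-numbered libraries were handled together is not known. Coverage is unknown, so thinly and deeply covered windows carry the same weight.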

Other observations

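The sex chromosomes, outside the autosomal comparison, differed in the same direction on D1. Over 18560 X windows the mean was 34.4% ± 1.61 (SD, n = 3) in TET_WT and 12.3% ± 0.223 (SD, n = 3) in DNMT_WT. Over 3549 Y windows it was 31.8% ± 1.29 (SD, n = 3) and 6.82% ± 0.125 (SD, n = 3). The libraries of the lines did not overlap on either chromosome, and each exact permutation p was 0.1.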
